A study of Mus musculus with 38 samples.

Results

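The sites described here are regions of mouse chromatin that were accessible in both SALL4 conditions at day 1 and at no other stage outside day 5. They are ATAC-seq peaks of day 1 SALL4-delN12 cells that overlap, by at least 1 bp, a peak of day 1 SALL4-WT cells and no peak of MEFs or of either form at days 9 and 11. The rule selected 1119 of the 94828 day 1 SALL4-delN12 peaks (1.18%), and they are called transient sites below. The sites were selected on the presence of peaks in these 7 ATAC-seq lists, so accessibility at day 1 and absence in MEFs and at days 9 and 11 are definitions. Day 5 accessibility, SALL4 and H3K27ac at day 6, the DNA letters, the genomic position and the expression of neighbouring genes were not used to choose them.

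The cells were mouse embryonic fibroblasts (MEFs) of E13.5 embryos from OG2 and 129S4/SvJaeJ crosses, infected with retrovirus for SALL4-WT or for SALL4-delN12 and cultured in iCD3 medium. SALL4-delN12 lacks the N-terminal residues that recruit NuRD, and all infected cells share the retroviral vector and the medium. MEFs without virus gave 1 ATAC-seq library, and each form gave 1 ATAC-seq and 1 RNA-seq library at days 1, 5, 9 and 11 and 1 Cut&Tag peak list each for SALL4 and H3K27ac at day 6. A library from day 0 of JGES reprogramming (conversion of MEFs with Jdp2, Glis1, Esrrb and Sall4, another experiment of the series), without BMP4, is shown beside the FPKM values of some genes. Day 1 cells without SALL4 were not analysed here, so SALL4, viral infection and the change of medium cannot be told apart as the source of a day 1 peak. The Cut&Tag lists come from merged replicates. With 1 ATAC-seq or RNA-seq library and 1 Cut&Tag list per condition there is no replicate check on any difference between days or forms, and no p-value is given. The 9 ATAC-seq lists held 78517 to 125470 peaks and the Cut&Tag lists 19841 to 69475; the numbers of reads behind them are unknown.

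ATAC-seq reports DNA that the Tn5 transposase can reach, mostly promoters and enhancers free of nucleosomes. SALL4 is a zinc finger transcription factor that binds A/T-rich DNA and recruits the NuRD complex, which removes histone acetylation and remodels nucleosomes. H3K27ac marks active promoters and enhancers, and AP-1 (FOS and JUN dimers) is a factor class well known at fibroblast enhancers and at sites that open after growth factor or stress signals.

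Sequences of 6 transient sites are shown as examples: AP-1 letters near the peak center with SALL4-WT at day 6 (Fat3, Bcl6 and Ces2a), AP-1 letters without any SALL4 peak (Rapgef5), a peak of both SALL4 forms (Zfp318), and a promoter site without AP-1 letters (Tnip3). They are not typical of the set. Their day 1 peak scores are high, and only 38.9% of all transient sites hold AP-1 letters in the central 200 bp. Each is the central 200 bp of the peak on the plus strand of mm10 (GRCm38), named by the gene with the nearest transcription start site (TSS), and capitals mark every TGANTCA, the AP-1 consensus, which reads the same on both strands.
Fat3, chr9:16306629-16306828: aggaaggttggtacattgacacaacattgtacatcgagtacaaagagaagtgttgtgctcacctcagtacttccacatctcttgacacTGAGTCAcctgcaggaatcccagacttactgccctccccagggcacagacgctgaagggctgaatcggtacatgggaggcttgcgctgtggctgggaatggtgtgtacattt
Bcl6, chr16:24092885-24093084: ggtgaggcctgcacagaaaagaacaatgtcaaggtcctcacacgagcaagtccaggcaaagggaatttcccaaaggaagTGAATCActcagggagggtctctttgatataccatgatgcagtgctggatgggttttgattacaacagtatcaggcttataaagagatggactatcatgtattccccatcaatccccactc
Ces2a, chr8:104732055-104732254: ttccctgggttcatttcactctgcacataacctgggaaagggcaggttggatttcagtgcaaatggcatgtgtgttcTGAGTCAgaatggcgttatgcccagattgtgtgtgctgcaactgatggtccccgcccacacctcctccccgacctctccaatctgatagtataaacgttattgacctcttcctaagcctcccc
Rapgef5, chr12:117092760-117092959: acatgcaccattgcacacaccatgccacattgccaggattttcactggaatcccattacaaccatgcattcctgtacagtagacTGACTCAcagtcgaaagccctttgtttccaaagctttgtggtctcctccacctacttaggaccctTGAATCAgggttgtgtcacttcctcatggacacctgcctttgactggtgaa
Zfp318, chr17:46376712-46376911: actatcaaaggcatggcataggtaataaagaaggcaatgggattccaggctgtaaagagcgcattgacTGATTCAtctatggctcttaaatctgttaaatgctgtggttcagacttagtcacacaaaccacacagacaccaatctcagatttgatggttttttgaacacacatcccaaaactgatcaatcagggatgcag
Tnip3, chr6:65590130-65590329: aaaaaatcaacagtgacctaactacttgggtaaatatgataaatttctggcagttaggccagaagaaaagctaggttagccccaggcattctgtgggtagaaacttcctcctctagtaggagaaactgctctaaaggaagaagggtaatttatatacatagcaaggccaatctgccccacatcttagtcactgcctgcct

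Fat3 encodes a large atypical cadherin, and its site lay in an intron 71.5 kb from the TSS. Its peak scored 147 in SALL4-delN12 and 153 in SALL4-WT cells at day 1 and 160 and 83.7 at day 5, and it overlapped a SALL4-WT peak of score 323 and no SALL4-delN12 peak at day 6. Peak scores are those of MACS, where a higher score stands for a lower p-value and 50 is the lowest score listed, and day 1 and day 5 scores of a site are given for SALL4-delN12 first and SALL4-WT second. Bcl6, a transcriptional repressor gene, was the nearest gene to an intergenic site 104 kb upstream that scored 174 and 301 at day 1, had no day 5 peak, and overlapped SALL4-WT (121) and SALL4-delN12 H3K27ac (69.3) at day 6. The Ces2a site, in the promoter of a carboxylesterase gene, scored 135 and 126 at day 1, kept a day 5 peak in SALL4-WT cells alone (107) and overlapped SALL4-WT (311). These 3 sites are examples picked after their values were seen. Among the others, the Rapgef5 site scored 286 and 183 at day 1 and 54.2 at day 5 in SALL4-delN12 cells and had no SALL4 or H3K27ac peak. The Zfp318 site scored 194 and 157 at day 1 and carried SALL4-WT (67.8) and SALL4-delN12 (123) peaks. The Tnip3 site, 0.168 kb upstream of the TSS of a gene for an inhibitor of NF-kappaB signalling, scored 206 and 164 at day 1, 94.7 and 60.7 at day 5, and carried SALL4 of both forms (75.2 for SALL4-WT and 131 for SALL4-delN12) but no H3K27ac peak.

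The median day 1 score of the transient sites was 71.4 in SALL4-delN12 cells (50.06 to 340.98) and 75.1 in SALL4-WT cells (50.09 to 978.33), and in 861 sites (76.9%) the lower of the 2 scores was under 75. Their median width was 178 bp, against 282 bp in the 1954 day 1 peaks that were shared by both forms, absent from MEFs and present in all 4 day 9 and day 11 lists, called kept sites below, and 331 bp in the 31214 peaks open in MEFs and all those lists. Other sets were near the transient sites in both measures. The 738 shared peaks open in MEFs and in no day 9 or day 11 list had a median width of 182.5 bp and median scores of 77.7 (SALL4-delN12) and 73.5 (SALL4-WT), and the 45000 day 1 SALL4-delN12 peaks without a SALL4-WT partner 183 bp and 77.8. Close to the threshold of the rule, 37 transient sites had a lower score under 51, 11 overlapped the SALL4-WT peak by at most 10 bp, and 21 other peaks were left out for an overlap of at most 10 bp with an excluded peak. The SALL4-WT partner peak of 82 transient sites (7.33%) itself reached into an excluded peak, and these partners had a median score of 115 and a highest of 978, against 72.5 and 423 for the other 1037.

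**Figure D1:**
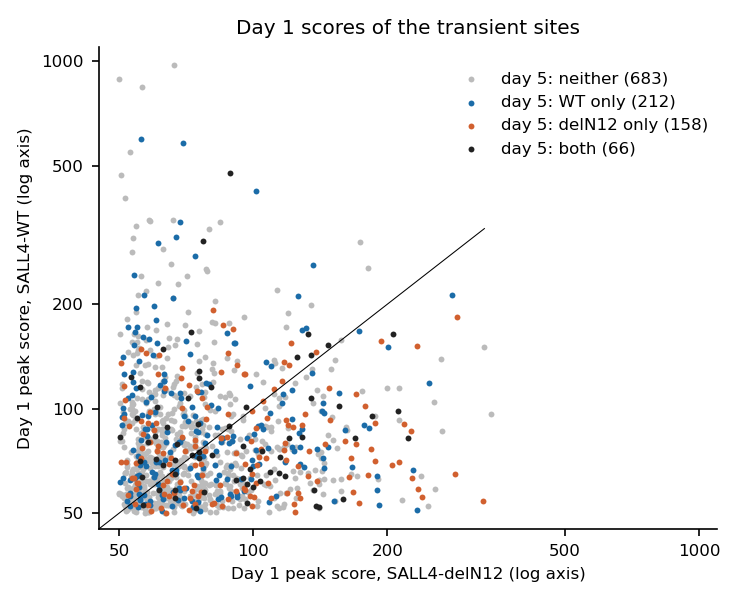
Day 1 ATAC-seq peak scores of the 1119 transient sites in SALL4-delN12 (horizontal) and SALL4-WT cells (vertical), both on log axes, 1 point per site, colored by the day 5 state, with the line of equal scores. Most points lie under 100 on both axes, and the 6 points above 500 on the vertical axis have SALL4-delN12 scores under 75 and SALL4-WT peaks that reach into an excluded peak.

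Not all transient sites stood alone. An excluded peak lay within 500 bp of 411 sites (36.7%) and within 50 bp of 132, and in 243 sites (21.7%) a MEF peak lay within 500 bp. The neighbours were unevenly placed along the chromosome: 276 sites had an excluded peak on the side of higher coordinates only, 89 on the side of lower coordinates only and 46 on both. Counting a site with neighbours on both sides under each, MEF peaks lay on the higher side of 199 sites and on the lower side of 59, and SALL4-WT peaks beyond the site itself on the higher side of 23 and on the lower side of 25. Kept sites had a MEF peak on the higher side in 252 and on the lower in 124, and the sites open in all lists in 4548 and 5020. Across all peaks of the ATAC-seq lists, where 2 peaks lay within 500 bp of each other the one at lower coordinates had the lower score in 55.6% to 57.8% of pairs, against 48.2% to 52.2% in the Cut&Tag lists. The cause of this unevenness and its part in the results were not tested. The 708 sites without such a neighbour are called isolated sites, and their shares are given beside the day 5, SALL4, H3K27ac, promoter and AP-1 shares. The comparison sets were not limited to sites without a neighbour, so the isolated shares have no matched comparison.

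Day 5 was the first stage after the rule's day 1 peaks. A day 5 peak was present in 224 transient sites in SALL4-delN12 cells (20.0%, 95% exact binomial interval 17.7% to 22.5%) and in 278 in SALL4-WT cells (24.8%, 22.3% to 27.5%). Intervals here cover counting error over sites only. The 8264 day 1 peaks shared by both forms and absent from MEFs, of which transient sites are 13.5%, had day 5 peaks in 60.2% (SALL4-delN12) and 74.2% (SALL4-WT), and all 49828 shared day 1 peaks in 82.7% and 90.1%. Of the transient sites, 683 (61.0%) had no day 5 peak in either form, 212 had one in SALL4-WT cells alone (18.9%), 158 in SALL4-delN12 cells alone (14.1%) and 66 in both (5.90%). Over the 8264 peaks the split was 16.9%, 22.9%, 8.85% and 51.4%. In the isolated sites the shares were 21.6% in SALL4-delN12 and 26.1% in SALL4-WT cells. Where a SALL4-delN12 peak remained, its median score went from 86.5 at day 1 to 68.5 at day 5, lower in 140 of 224 sites (62.5%), against 60.7% of the shared peaks absent from MEFs and 60.9% of all shared day 1 peaks. In SALL4-WT cells the median went from 80.4 to 77.0, lower in 147 of 278 sites (52.9%), against 32.4% and 21.0%. The scores are not normalized between libraries.

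The day 5 share moved with the number of day 9 and day 11 lists that held the site. With SALL4-delN12 it was 20.0%, 35.1%, 55.0%, 77.3% and 92.3% at 0, 1, 2, 3 and 4 lists, and with SALL4-WT 24.8%, 56.1%, 79.5%, 90.0% and 97.4%. Day 5 lies between these days, so the number of later lists and the day 5 peak are repeated looks at the same sites. The 738 shared day 1 peaks that were open in MEFs and in no day 9 or day 11 list had day 5 shares of 22% and 30.1%. At a lower day 1 score of 50 to 60, 16.4% of 489 transient sites and 86.7% of 293 kept sites had a SALL4-delN12 day 5 peak, and at scores of at least 100 the shares were 29.4% of 68 and 96.4% of 923.

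**Figure D2:**
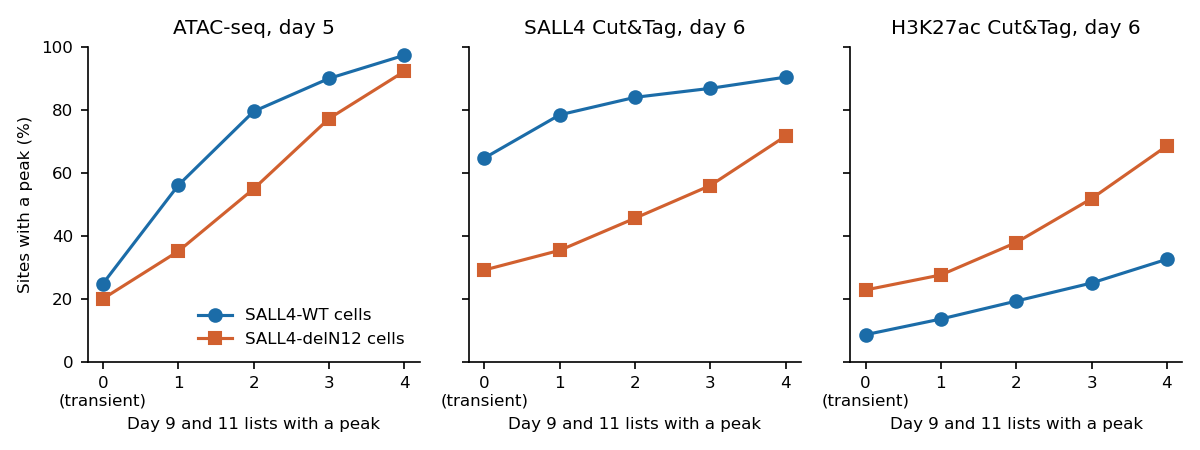
Share of sites (percent) with a day 5 ATAC-seq, day 6 SALL4 or day 6 H3K27ac peak, for day 1 peaks shared by both forms and absent from MEFs, by the number of day 9 and day 11 lists that hold the site, with transient sites at 0; circles are SALL4-WT and squares SALL4-delN12 cells, with 1 peak list per form and assay. Transient sites have the lowest share in all 6 series, from 8.58% (H3K27ac, SALL4-WT) to 64.7% (SALL4, SALL4-WT).

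**Figure D3:**
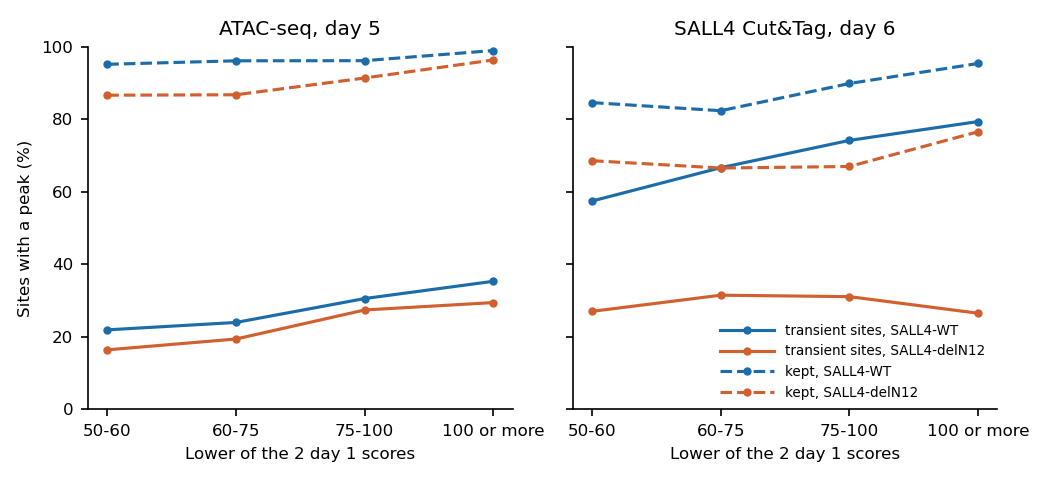
Share of sites (percent) with a day 5 ATAC-seq peak (left) or a day 6 SALL4 peak (right) by the lower of the 2 day 1 scores, for transient sites (solid) and kept sites (dashed) of each form. Transient sites stay below kept sites of the same form in every score bin, and from the lowest to the highest bin their SALL4-WT share is 57.5%, 66.7%, 74.2% and 79.4% and their SALL4-delN12 share 27%, 31.5%, 31.1% and 26.5%.

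SALL4 occupancy differed between the forms at these sites. At day 6, SALL4-WT peaks covered 724 transient sites (64.7%, interval 61.8% to 67.5%) and SALL4-delN12 peaks 326 (29.1%, 26.5% to 31.9%). The total numbers of SALL4 peaks were close, 69475 for SALL4-WT and 67310 for SALL4-delN12. Site by site, 481 were covered by SALL4-WT alone (43%), 83 by SALL4-delN12 alone (7.42%), 243 by both (21.7%) and 312 by neither (27.9%). The same split over the 8264 shared peaks absent from MEFs was 37.7%, 5.09%, 44.8% and 12.4%. Among the 8264 shared peaks absent from MEFs the shares were 82.5% for SALL4-WT and 49.9% for SALL4-delN12, in kept sites 90.4% and 71.7%, and in all 49828 shared day 1 peaks 82.2% and 62.9%. The 738 shared peaks open in MEFs and in no day 9 or day 11 list had 64.1% and 43.8%. The opposite order was seen in the 45000 day 1 SALL4-delN12 peaks without a SALL4-WT partner, with 38.3% for SALL4-WT and 58.4% for SALL4-delN12. In isolated transient sites the shares were 58.3% for SALL4-WT and 16.8% for SALL4-delN12, and in those with an excluded peak within 500 bp 75.7% and 50.4%. SALL4 peaks are wide (median 899 bp and 982 bp), so a neighbouring site and a transient site can share a SALL4 peak.

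By day 5 state, SALL4-WT covered 89.4% of the 66 sites with a day 5 peak in both forms, 68.4% of the 212 open in SALL4-WT cells alone, 62.7% of the 158 open in SALL4-delN12 cells alone and 61.6% of the 683 open in neither. SALL4-delN12 covered 30.3%, 21.7%, 41.1% and 28.6% of these groups.

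H3K27ac was sparse. A day 6 H3K27ac peak covered 96 transient sites in SALL4-WT cells (8.58%, interval 7.00% to 10.4%) and 255 in SALL4-delN12 cells (22.8%, 20.4% to 25.4%), against 21.1% and 44.2% of the 8264 shared peaks absent from MEFs, 46.0% and 71.8% of all shared day 1 peaks and 59.7% and 84.7% of the sites open in all lists. The 738 shared peaks open in MEFs and in no day 9 or day 11 list were nearer, with 11.2% (SALL4-WT) and 33.2% (SALL4-delN12). At a lower day 1 score of 50 to 60 the shares were 10.0% and 23.3% of transient sites. The shared peaks absent from MEFs had 17.5% and 37.8% in that score range. The SALL4-WT list has 19841 H3K27ac peaks and the SALL4-delN12 list 45599, so the 2 forms are not on the same scale. In isolated sites 2.68% and 8.76% were covered, and in the others 18.7% and 47.0%. H3K27ac peaks are wide (median 1470 bp in SALL4-WT and 1271 bp in SALL4-delN12 cells), so 1 peak can cover a transient site and its neighbour. Of the covered sites, 77 of 96 in SALL4-WT and 193 of 255 in SALL4-delN12 cells had an excluded peak within 500 bp.

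Transient sites lay mostly in introns and intergenic DNA. Introns held 576 (51.5%), intergenic DNA 451 (40.3%), exons 37 and promoters, taken as 2 kb to each side of a TSS, 55 (4.92%). For the 8264 shared peaks absent from MEFs the shares were 49.8% for introns, 39.8% for intergenic DNA and 6.84% for promoters. Promoters made up 3.95% of isolated transient sites, 8.60% of kept sites and 46.8% of the sites open in all lists. The median distance to a TSS was 35.8 kb. Transient sites were spread over the chromosomes, from 98 on chromosome 2 (8.76%) to 6 on chromosome X (0.536%). The shared peaks absent from MEFs had 8.20% and 1.02% on these chromosomes. Of the transient sites, 26 had another one within 10 kb. Their median GC content was 47.5%, against 49% in the shared peaks absent from MEFs and 56% in the sites open in all lists.

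AP-1 letters were the most frequent of the 18 consensus words searched on both strands in the central 50 bp. TGANTCA was present in 164 transient sites (14.7%, interval 12.6% to 16.9%), against a mean of 1.52% in the 50 bp windows 500 to 1000 bp away, which is 9.62 times, with 9.21 times in kept sites and 7.59 times in the sites open in all lists. All shared day 1 peaks held it in 12.9%, those absent from MEFs in 18.2%, kept sites in 15.1% and sites open in all lists in 9.56%. Isolated transient sites held it in 18.1% and those with a near neighbour in 8.76%. In the 200 bp center 435 transient sites (38.9%) held the letters, against 45.4% of the shared peaks absent from MEFs and 35.2% of all day 1 SALL4-delN12 peaks. By day 5 state the share was 48.6% (open in SALL4-WT cells alone), 44.3% (SALL4-delN12 cells alone), 39.4% (both) and 34.6% (neither). By SALL4 state, 16.0% of the 481 sites with SALL4-WT alone, 14.5% of the 83 with SALL4-delN12 alone, 10.3% of the 243 with both forms and 16.0% of the 312 with neither held the letters in 50 bp.

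The other words were rare. KLF letters (GGGNGNGG) stood in 32 transient sites (2.86%), under their flank mean of 4.09%, in 4.15% of the shared peaks absent from MEFs and in 12.8% of the sites open in all lists. C/EBP letters (TTGCNNAA) stood in 39 (3.49%), above their flank mean of 1.83%. They stood in 5.11% of the shared peaks absent from MEFs, 7.88% of kept sites and 1.91% of the sites open in all lists. CAGCTG, an E-box, stood in 48 (4.29%), SOX letters (AACAAT) in 34 (3.04%) and RUNX letters (TGTGGTT) in 30 (2.68%). The shared peaks absent from MEFs held these words in 4.56%, 2.63% and 2.80%. The RUNX share was above its flank mean of 1.27%. AATATT, a word of the A/T-rich DNA that SALL4 binds, stood in 4 sites (0.357%), against 0.424% of the shared peaks absent from MEFs and 0.346% of the sites open in all lists. A match is only a match of letters, and peak centers were used since the lists give no summits.

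**Figure D4:**
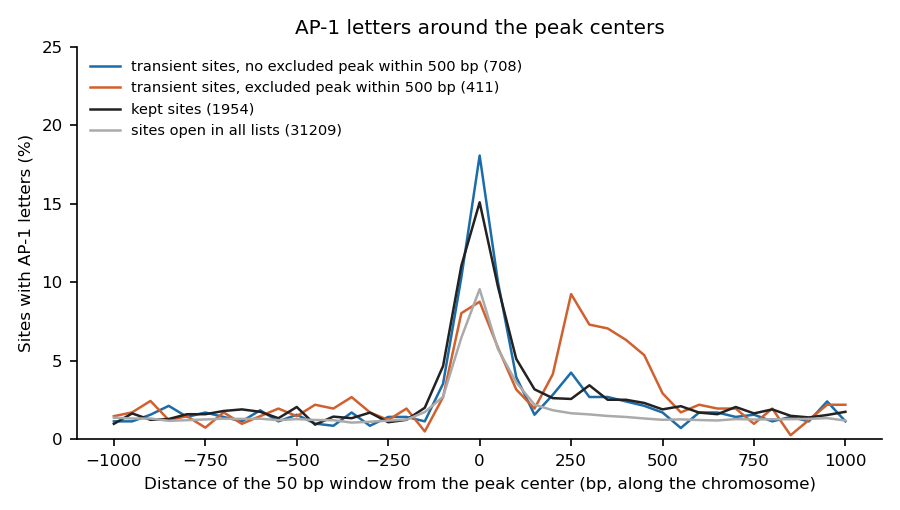
Share of sites (percent) with TGANTCA in 50 bp windows by distance from the peak center (bp, toward higher coordinates on the right), for isolated transient sites, transient sites with an excluded peak within 500 bp, kept sites and 31209 sites open in all lists whose sequence was read. At the center the shares are 18.1%, 8.76%, 15.1% and 9.56%. The transient sites with a near neighbour hold the letters in 9.25% at 250 bp on the right and 1.22% at 250 bp on the left. Isolated transient sites hold them in 4.24% and 1.41% at these distances.

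Genes near transient sites reached a 2-fold change at day 9 at shares close to those of all genes in SALL4-WT cells. A TSS lay within 50 kb of 661 sites, which gave 636 genes, of which 72 were also nearest to a kept site and 610 were in the FPKM table. From day 1 to day 5, 27 of 437 expressed genes were at least 2-fold higher in SALL4-WT cells (6.18%) and 20 lower (4.58%), against 6.27% and 4.19% of all genes, and in SALL4-delN12 cells 24 of 434 (5.53%) and 11 (2.53%), against 6.16% and 2.91%. From day 1 to day 9 in SALL4-WT cells, 34 of 442 expressed genes were at least 2-fold higher (7.69%) and 32 at least 2-fold lower (7.24%), against 7.82% and 6.51% of all genes, on the scale of log2(FPKM + 1). In SALL4-delN12 cells 27 of 437 were higher (6.18%) and 16 lower (3.66%), against 7.74% and 3.54%. The medians of the day 9 changes were 0.02 (SALL4-WT) and 0.01 (SALL4-delN12). At day 11 the counts were 52 higher (11.8%) and 54 lower (12.2%) in SALL4-WT cells, against 11.5% and 8.76% of all genes, and 38 (8.64%) and 28 (6.36%) in SALL4-delN12 cells, against 10.4% and 4.61%. Genes near kept sites were 2-fold higher at day 9 in 12.7% (SALL4-WT) and 12% (SALL4-delN12) and 2-fold lower in 5.33% and 3.58%. Differences between these shares rest on 1 library per day.

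The 6 genes named for the largest rises were Cck, Alpl, Tal2, Pvalb, Nrep and Cyfip2. Cck, the gene of the peptide hormone cholecystokinin, has an intergenic transient site 19.4 kb from its TSS. Its FPKM in SALL4-WT cells was 0.639, 12.9, 73.6 and 60.7 at days 1, 5, 9 and 11, and in SALL4-delN12 cells 0.393, 2.17, 7.08 and 7.51. Both series were higher at each later day than at day 1, and the site scored 155 (SALL4-delN12) and 102 (SALL4-WT) at day 1 and 60.3 and 57.5 at day 5. Alpl, the tissue-nonspecific alkaline phosphatase gene, went from 0.957 to 38.4, 30.03 and 33.9 in SALL4-WT and from 0.109 to 2.45, 3.28 and 5.74 in SALL4-delN12 cells. Its intronic site scored 52.8 and 52.5 at day 1 and 96.5 at day 5 in SALL4-WT cells, with a SALL4-WT peak of 190. The parvalbumin gene Pvalb went in SALL4-WT cells from 0.33 to 13.8, 7.60 and 7.68 and in SALL4-delN12 cells from 0.58 to 1.26, 1.36 and 3.28. Its site had a day 5 peak in SALL4-WT cells alone (188). Cyfip2, a subunit gene of the WAVE complex of actin assembly, went from 1.36 to 8.25 (SALL4-WT) and from 0.913 to 3.996 (SALL4-delN12) between days 1 and 11. Nrep went from 35.9 to 64.4 and from 5.59 to 34.6 between days 1 and 9, and Tal2, a bHLH factor gene, from 3.59 to 8.37 and from 0.0987 to 4.21. Cck, Alpl, Cyfip2 and Tal2 were past 2-fold at day 9 in both forms. The Cyfip2 site scored 56.1 in SALL4-delN12 cells at day 1, and its SALL4-WT partner of 597 reaches into an excluded peak. It overlapped a day 5 peak of 340 in SALL4-WT cells.

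Genes named for the largest falls were Mfap4, Ptn, Csf1, Mcm5 and Il1a. Csf1, which encodes the macrophage growth factor M-CSF, was at 310, 74.2, 119 and 72.8 FPKM in SALL4-WT cells at days 1, 5, 9 and 11 and at 153, 41.8, 37.8 and 26.5 in SALL4-delN12 cells. All later values lay under day 1 of the same form and under the 192 of day 0 of JGES reprogramming, and its site carried SALL4 of both forms (117 and 114) and H3K27ac of both forms (126 and 239). The microfibril gene Mfap4 went from 58.4 to 12.4 (SALL4-WT) and from 74.1 to 12.2 (SALL4-delN12) at day 9, and Ptn, the growth factor pleiotrophin, from 35.0 to 12.9 and from 26.4 to 3.49. Mcm5, a subunit of the replicative helicase, went from 26.6 to 5.47 in SALL4-WT and from 25.3 to 14.5 in SALL4-delN12 cells. Il1a, a cytokine gene, went from 5.44 to 0.421 and from 0.837 to 0.181. Mfap4, Ptn and Csf1 were past 2-fold at day 9 in both forms, and Mcm5 and Il1a in SALL4-WT cells alone. The summed FPKM of 4 macrophage markers went from 39.0 at day 1 to 13.8 at day 9 in SALL4-WT and from 39.9 to 47.9 in SALL4-delN12 cells, and its part in the values of Il1a and Csf1 was not tested.

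**Figure D5:**
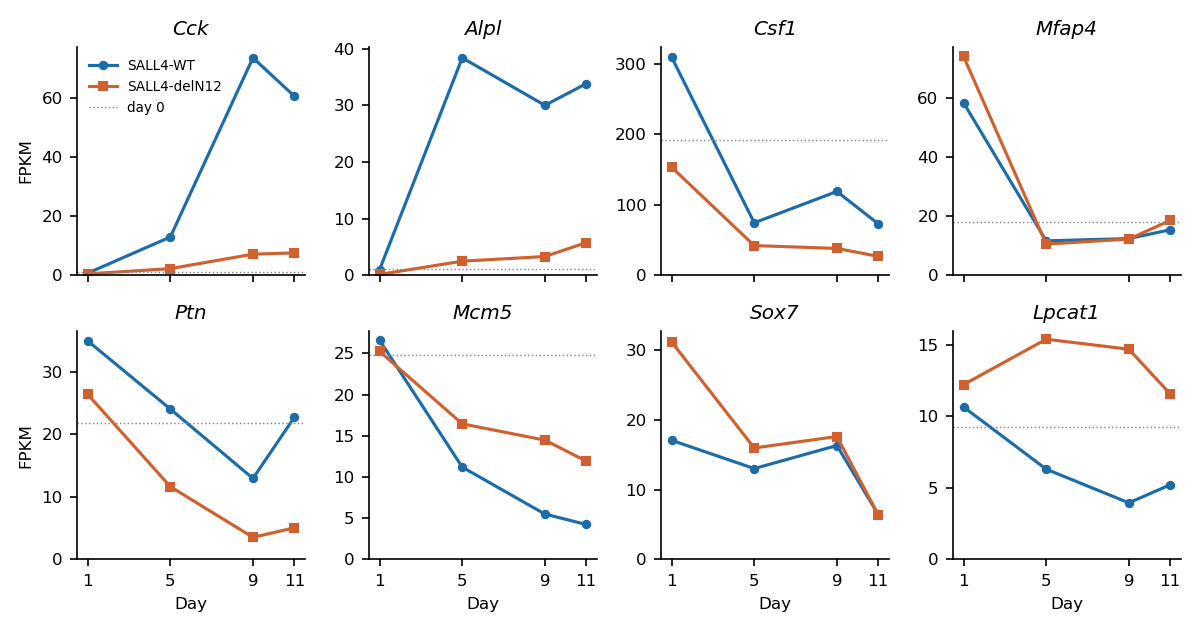
FPKM of 8 genes nearest to a transient site at days 1, 5, 9 and 11 in SALL4-WT (circles) and SALL4-delN12 cells (squares), 1 library per point, with day 0 of JGES reprogramming as a dotted line. Cck and Alpl end above day 1, Csf1, Mfap4, Ptn, Mcm5 and Sox7 end below it in both forms, and Lpcat1 is at 3.94 (SALL4-WT) and 14.7 (SALL4-delN12) at day 9.

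Of the 636 genes, 25 had 2 transient sites and 0 had more. The 6 with the highest lower day 1 score at either site were Lpcat1, Cse1l, Arhgap22, Myo10, Sp5 and Ttc39c, and Dab2 and Fli1 were also among the 25. Sp5, a WNT target encoding a zinc finger factor, has its sites 37.2 kb and 37.7 kb from the TSS, next to each other under 1 SALL4-delN12 peak of 142. Its FPKM was 0.46, 0.574, 1.60 and 2.91 in SALL4-WT and 3.37, 8.45, 7.33 and 7.66 in SALL4-delN12 cells. How many of all genes differ as much between the forms was not counted, and the difference was not tested. Lpcat1, a phospholipid remodelling enzyme, was at 10.6, 6.30, 3.94 and 5.20 in SALL4-WT and at 12.2, 15.4, 14.7 and 11.6 in SALL4-delN12 cells. Both its sites kept a day 5 peak in SALL4-WT cells alone (62.3 and 115), the form with the lower FPKM. Cse1l, an importin alpha exporter, was lower at each later day in both forms, from 27 to 13.9 (SALL4-WT) and from 27.9 to 18.9 (SALL4-delN12), without reaching the 2-fold limit.

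Of 16 lists of genes for cell identity and signalling, 8 had at least 1 gene nearest to a transient site. Among all 21840 protein-coding genes, 636 (2.91%) were nearest to a transient site and 1166 (5.34%) to a kept site. Kept sites were nearest to 1 of 10 endothelial genes, 3 of 12 WNT targets, 1 of 12 primitive endoderm genes and 4 of 15 inflammatory genes. The endothelial list had 3 of 10 (Sox7, Erg and Fli1), the WNT targets 2 of 12 (Axin2 and Sp5), the primitive endoderm list 1 of 12 (Dab2), and the lists of fibroblast (Prrx1), TEAD and YAP (Lats2), FGF and ERK feedback (Spred2), p53 and senescence (Gadd45a) and neural genes (Map2) 1 each. The lists of 20 pluripotency, 11 AP-1, 12 epithelial, 10 macrophage, 13 NuRD, 6 BMP target, 15 inflammatory and 10 nuclear receptor genes had 0. Sox7, a SOX factor of endoderm and endothelium, was at 17.1, 13.0, 16.3 and 6.42 FPKM in SALL4-WT and at 31.2, 16.0, 17.6 and 6.35 in SALL4-delN12 cells, and was listed at 0 at day 0. Erg was at most 0.126 and Fli1 at most 1.32 in these 8 libraries. The summed FPKM of the endothelial markers Kdr, Cdh5, Pecam1 and Tek went from 12.7 at day 1 to 3.88 at day 11 (SALL4-WT) and from 11 to 4.74 (SALL4-delN12), and its part in Sox7 was not tested. Dab2, an endocytic adaptor of primitive endoderm, has intronic sites with day 1 scores of 76.6 and 56.2, and of 60.2 and 51.8, and no day 5, SALL4 or H3K27ac peak. Its FPKM was 11, 7.93, 11.6 and 10.0 in SALL4-WT and 6.32, 6.80, 10.7 and 22.7 in SALL4-delN12 cells, where the summed primitive endoderm markers went from 12.4 to 134 between days 1 and 11. The Axin2 site scored 50.1 in SALL4-delN12 cells, its SALL4-WT partner of 891 reaches into an excluded peak, and it carried SALL4 and H3K27ac of both forms.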

How the data were processed

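The authors trimmed reads with Trim Galore 0.6.4, mapped them to mm10 with Bowtie2 2.4.5, filtered with SAMtools 1.16.1 and called ATAC-seq and Cut&Tag peaks with MACS 1.4.2. ATAC-seq peaks rest on reads under 50 bp, and Cut&Tag replicates were merged before peak calling. The deposited peak lists give a score per peak, which is not normalized between libraries. For bulk RNA-seq, the authors mapped reads with HISAT2 2.2.1 and deposited FPKM values from StringTie 2.2.1. Read numbers are not given in the sources used here, so the depth is unknown.

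Overlaps of at least 1 bp, nearest protein-coding TSS (GENCODE vM21), letters in the central 50 bp and changes of log2(FPKM + 1) between days were computed in Python 3 with pandas and pysam. Scripts were tested on simulated data. Genes entered a comparison with an FPKM of 1 or more on either day, and needed a TSS within 50 kb of the peak center. Called means 2-fold. The transient sites and the gene lists were chosen with earlier results of these data known. Named genes were 6 of the 25 tied at the most sites (2), taken by the highest lower day 1 score, a tie-break that the rule did not give, the 6 largest rises and 6 largest falls at day 9 (mean of both forms, same direction in both, FPKM of at least 5 in 1 of the 4 libraries), and list genes, of which 1 gene is not reported here. Sites considered for printing were the 3 with the highest lower day 1 score in each day 5 class and with both SALL4 forms. Added to these were the 3 highest with AP-1 letters in the central 50 bp and a SALL4-WT peak. Sites on chromosome 18 were not considered for printing. JGES time courses, the second FPKM table and the scRNA-seq counts were not used, apart from day 0.

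Alternatives were the overlap, score threshold, clearance of excluded peaks, source list, late lists, motif window, pseudocount, filter, scaling and TSS distance. Added after seeing the data were windows of equal width, the peak center, and clearance of the SALL4-WT partner peak.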

Additional observations from a re-analysis of the deposited data

Results flagged for a closer look

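Among the named genes with a 2-fold change in at least 1 form, 3 had changes of opposite sign in SALL4-WT and SALL4-delN12 cells. In each, only 1 form passed 2-fold and the other changed little. The share of all genes with such a difference in sign was not computed. With 1 library per day, these differences were not tested. Lpcat1 changed from day 1 to day 9 by -1.24 on the log2(FPKM + 1) scale in SALL4-WT and by 0.25 in SALL4-delN12 cells. Tal2 changed from day 1 to day 11 by -0.27 in SALL4-WT and by 1.68 in SALL4-delN12 cells. Dab2 changed over the same days by -0.12 in SALL4-WT and by 1.70 in SALL4-delN12 cells. No group had enough samples for a search for outlying libraries.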

How the results depend on the processing

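No paired analysis was possible because each condition has 1 library or 1 merged peak list. With day 1 scores of at least 100 in both forms 68 transient sites were left, with excluded peaks extended by 500 bp 708, and without the day 9 lists 3063, and the other 4 rules gave numbers within 1.5 times of 1119. The day 5 share in SALL4-delN12 cells was 17.5% with an overlap of at least 50% of the peak, 29.4% at scores of at least 100, 23.1% without the day 11 lists, 35.3% without the day 9 lists and 17.2% with the center inside the peak, and in SALL4-WT cells 35.3%, 31.1% and 48.8% at scores of at least 100, without day 11 and without day 9. SALL4-WT covered 69.5% (overlap of 50%), 79.4% (scores of at least 100), 58.3% (extension) and 75.9% (without day 9), and SALL4-delN12 32.1%, 26.5%, 16.8% and 36.2% under the same settings and 32.01% when sites were taken from the SALL4-WT list. H3K27ac covered 10.7%, 5.88%, 2.68% and 12.6% in SALL4-WT and 26.5%, 16.2%, 8.76% and 28.2% in SALL4-delN12 cells under those 4 settings, 25.7% without day 11 in SALL4-delN12 cells, and 6.94% and 19.96% where the SALL4-WT partner peak was also clear. The SALL4-WT share of SALL4 stayed above the SALL4-delN12 share, and the reverse held for H3K27ac, under all of these settings. The settings changed the sites and not the Cut&Tag lists, so they cannot check the difference between the forms. For H3K27ac the SALL4-delN12 list is also the longer one, with 45599 peaks against 19841. AP-1 letters were in 18.1% (extension), 20.96% (without day 9), 38.9% (200 bp) and 37.9% (whole peak). A pseudocount of 0.1 gave 55 genes 2-fold higher in SALL4-WT cells at day 9, and 42 higher and 26 lower in SALL4-delN12 cells, where all genes gave 11.7%, 11.9% and 5.48%. Scaling to the median ratio moved the medians to 0.089 (day 9) and 0.095 (day 11) in SALL4-WT and to 0.078 and 0.12 in SALL4-delN12 cells, with the medians of all genes at 0.064, 0.153, 0.092 and 0.12 (0.04 at day 11 in SALL4-WT cells before scaling), and a TSS within 10 kb gave -0.14 at day 11 in SALL4-WT cells. For the extension, 411 sites with a near neighbour were left out; for the other settings the cause was not tested. Unknown read depth and absent replicates limit every comparison of peak presence between days and forms, including those that rest on scores near 50.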

Other observations

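In the ATAC-seq lists, the order of weaker and stronger neighbouring peaks along the chromosome was modestly skewed. The lower-coordinate peak was the weaker one in 57.8% of 22922 pairs within 500 bp in MEFs and in 55.6% of 21048 pairs in day 1 SALL4-WT cells. In the SALL4-WT Cut&Tag list it was 50% of 2544 pairs. Transient sites with an excluded peak on the higher side only held AP-1 letters in 6.16% of 276 and those with it on the lower side only in 19.1% of 89, close to the 18.1% of isolated sites. SALL4-delN12 covered 48.9% and 48.3% of these groups.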
